A study of Mus musculus with 12 samples.

Results

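The comparison of DICER1 G1809R with wild-type DICER1 rests on 6 of the 12 arrays of the series: the 3 arrays titled G1809R and the 3 titled WT, set against each other by replicate number. All cells were DKO172, a line grown from a tumor of the fallopian tube of a female mouse. They carried a hygromycin-selectable plasmid, pLD-hygro-EnVM, coding for DICER1 G1809R (G1809R), for unmutated DICER1 (WT) or, as the control, for GFP. A further group of 3 arrays, with the other hotspot mutant D1709N, served for a direct comparison of the mutants. Wells seeded with 200000 cells received 2 µg of plasmid, the cells were replated at 24 h, spent 84 h in hygromycin at 300 µg/ml and were harvested at 108 h, and 100 ng of total RNA per sample was labelled with Cy3. The comparison asks which of the changes that wild-type DICER1 brings about the mutant fails to give, and which it keeps.

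The labels do not give the genotype of the line, and the name is known from the study's field as that of cells from mice with Dicer1 deleted in Müllerian-duct tissue. It is 1 line, so the values hold for that line. The amount of plasmid or of DICER1 protein per group was not measured, and the array's Dicer1 probe, designed for the mouse gene, checks no label. Nothing in the labels says that the 3 samples of a group came from separate cultures, so the p-values reflect how far these samples spread, and that spread may be technical only.

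DICER1 cuts the hairpin precursor of a miRNA on both arms with a pair of RNase III domains. The RNase IIIa domain frees the strand on the 3′ arm (3p miRNA) and the RNase IIIb domain the strand on the 5′ arm (5p miRNA). G1809R and D1709N are hotspot changes of tumors in the RNase IIIb domain, known from biochemical work to leave 3p miRNAs and to remove most 5p miRNAs. A miRNA binds target mRNAs through its seed and lowers their level, so targets of 5p miRNAs and of 3p miRNAs can be read as separate groups on an mRNA array. No miRNA was measured here.

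The 5p seeds of the families whose targets are described below are shown first. The targets counted are those of set lists of gene symbols, and no seed matches were searched in transcripts. Bases 2 to 8 (the seed) are in capitals, and the sequences are those of RefSeq (GRCm38.p6). The let-7 family, which represses fetal and growth genes, has 1 seed in its members:
mmu-let-7a-5p: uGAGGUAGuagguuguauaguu
mmu-let-7b-5p: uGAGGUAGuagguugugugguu
mmu-miR-98-5p: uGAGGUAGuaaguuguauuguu
The other 5p families with target lists included miR-15/16, a family that restrains G1 cyclins, the miR-17 family, miR-21 and miR-30:
mmu-miR-16-5p: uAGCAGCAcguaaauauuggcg
mmu-miR-17-5p: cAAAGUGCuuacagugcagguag
mmu-miR-20a-5p: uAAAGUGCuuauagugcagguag
mmu-miR-21a-5p: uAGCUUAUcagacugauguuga
mmu-miR-30a-5p: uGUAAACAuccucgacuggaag
The 3p families, whose strand the mutant enzyme should still free, included miR-101, miR-29, miR-221 and miR-222, miR-25/92 and miR-19:
mmu-miR-101a-3p: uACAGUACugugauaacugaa
mmu-miR-29a-3p: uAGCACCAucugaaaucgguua
mmu-miR-221-3p: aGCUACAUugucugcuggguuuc
mmu-miR-222-3p: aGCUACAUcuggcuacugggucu
mmu-miR-25-3p: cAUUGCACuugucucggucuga
mmu-miR-92a-3p: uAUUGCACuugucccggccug
mmu-miR-19b-3p: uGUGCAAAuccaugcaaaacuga
The first and the second pair, miR-221 with miR-222 and miR-25 with miR-92a, each share 1 seed. How the arms lie in a precursor is shown by 2 hairpins, with the mature strand in capitals. That of Mirlet7a-1 (chr13:48538179-48538272, minus strand, 94 bases) holds let-7a at bases 13 to 34, on the 5′ arm. That of Mir101a (chr4:101346945-101347027, minus strand, 83 bases) holds miR-101a at bases 51 to 71, on the 3′ arm.
Mirlet7a-1: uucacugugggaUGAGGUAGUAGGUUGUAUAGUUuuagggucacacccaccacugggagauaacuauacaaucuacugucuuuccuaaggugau
Mir101a: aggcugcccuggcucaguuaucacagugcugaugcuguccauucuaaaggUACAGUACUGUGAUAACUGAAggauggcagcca

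Levels are the log2 of an array's processed intensity minus the array's 75th percentile, so a level of 0 is that percentile. The percentile lay between 1036 and 1462 intensity units over the 12 arrays. Replicate 1 of every group was on slide 1 and replicates 2 and 3 were on slide 2. WT replicate 1 stood apart: 82.7% of its probes were well above background against 49.5% to 71.3% on the other arrays, and across probes it correlated with WT replicates 3 and 2 at 0.958 and 0.961, where other arrays of 1 group reached 0.962 to 0.992. Counts are therefore also given without it. Of the markers of Müllerian epithelium, 17 of 22 on the array were well above background on all arrays of at least 1 group, among them Krt8 and Wt1, while Pax8, Sox17, Foxj1, Hoxa10 and Muc1, which define secretory, ciliated or uterine epithelium, were not. The summed linear level of the 17 was 321 to 500 in WT and 373 to 609 in G1809R.

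Of 24184 genes and transcripts tested with limma, with the replicate number as a block, 3064 (12.7%) differed between G1809R and WT at an adjusted p under 0.05. Of these, 1538 (6.36%) were higher and 1526 (6.31%) lower in G1809R. At least 2-fold differences were fewer and, with this scaling, mostly falls, with 125 rises and 282 falls. That excess of falls may depend on the scaling, since it was counted with this scaling alone. Among calls of any size, quantile normalization gave 1680 higher and 1351 lower, and the deposited values gave 1736 and 1451. All 3064 differences had the same sign in 3 of 3 replicate pairs and on both slides, which a fit with the number as a block favours. Across all genes, which are not independent replicates, the differences on slides 1 and 2 correlated at 0.445. Without the block 397 genes were called (1.64%), all of them among the 3064. Without WT replicate 1 the count was 2016, and without G1809R replicates 1, 2 and 3 it was 1637, 1573 and 1940. The median difference of all genes was 0.01.

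Wild-type effects were taken as genes that differed between WT and GFP at an adjusted p under 0.05 and by at least 2-fold. There were 708, of which 499 were rises and 209 falls, among 4300 called genes (17.8% of those tested). The excess of rises depended on the scaling: there were 336 rises and 326 falls with quantile normalization and 332 and 314 with the deposited values. By the same test 904 genes (3.74%) differed between G1809R and GFP, 424 higher and 480 lower. With quantile normalization the share of higher calls was 36.6% in place of 46.9%, and 36.3% with the deposited values. The 904 became 3 without the block (0.0124%), 127, 18 and 130 without G1809R replicates 1, 2 and 3, 263, 53 and 152 without GFP replicates 1, 2 and 3, and 584, 475 and 463 without D1709N replicates 1, 2 and 3. The 4300 became 713 without the block (2.95%) and 2541 and 2328 without GFP replicates 1 and 3. The comparisons share arrays: those of WT enter both WT against GFP and G1809R against WT, and those of GFP enter both comparisons with GFP. The counts that follow are therefore a description of each gene's 3 comparisons side by side.

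G1809R did not give 297 of the 708 wild-type effects (41.9%): these genes were called back toward GFP in G1809R against WT and were not called against GFP. It gave 54 in part, called in both comparisons, and kept 149 (21%), which were called against GFP and not against WT. For 199 effects neither comparison settled the class, 7 turned into a change the opposite way and 2 (Mgat4c and Ltb) went further than in WT. The median gene kept 42.5% of the wild-type change on the log2 scale, 47.6% of the rises and 29.8% of the falls. In the group not given the median share was 13.5% and in the group kept 76.1%. A gene in the kept group is one whose difference from WT missed the threshold, which does not show that the mutant equalled the wild type. Likewise, a gene in the group not given missed the threshold against GFP. That does not show that it was back at the control level.

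The kept group moved with single arrays. It held 38, 5 and 23 genes without G1809R replicates 1, 2 and 3, 57, 18 and 44 without GFP replicates 1, 2 and 3, 91 without D1709N replicate 2 and 191 without WT replicate 1. It held 1 gene without the block and 2 without the filter on dim probes. Of 58 genes named by rule that were called in G1809R against GFP, none kept that call without the block, and 2 (Tet2 and Mgat4c) kept it without any 1 array in turn. The group not given held 100 without the block, 275 without WT replicate 1, and 254 to 382 over all single arrays left out.

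The split by direction moved with the scaling too. The group not given held 184 rises and 113 falls here, 110 and 178 with quantile normalization, 115 and 167 with the deposited values and 63 and 85 with normexp, a background correction. Among the rises the class with most genes was the unsettled one with quantile normalization (133) and the kept one with normexp (88).

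**Figure D1:**
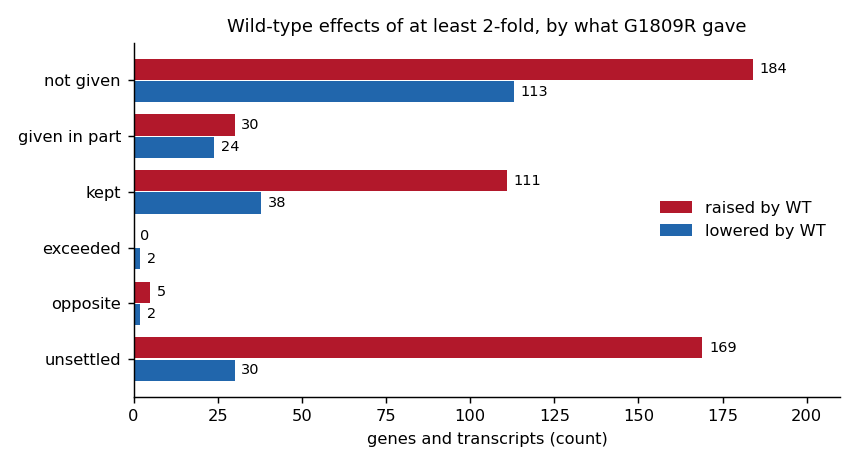
Number of wild-type effects (708 genes changed at least 2-fold between WT and GFP) by what G1809R gave, with rises and falls in separate bars. With scaling on the 75th percentile, effects not given number 184 among rises and 113 among falls, and 111 of the 149 kept effects are rises. With quantile normalization the not given effects number 110 and 178, and the unsettled rises 133.

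**Figure D2:**
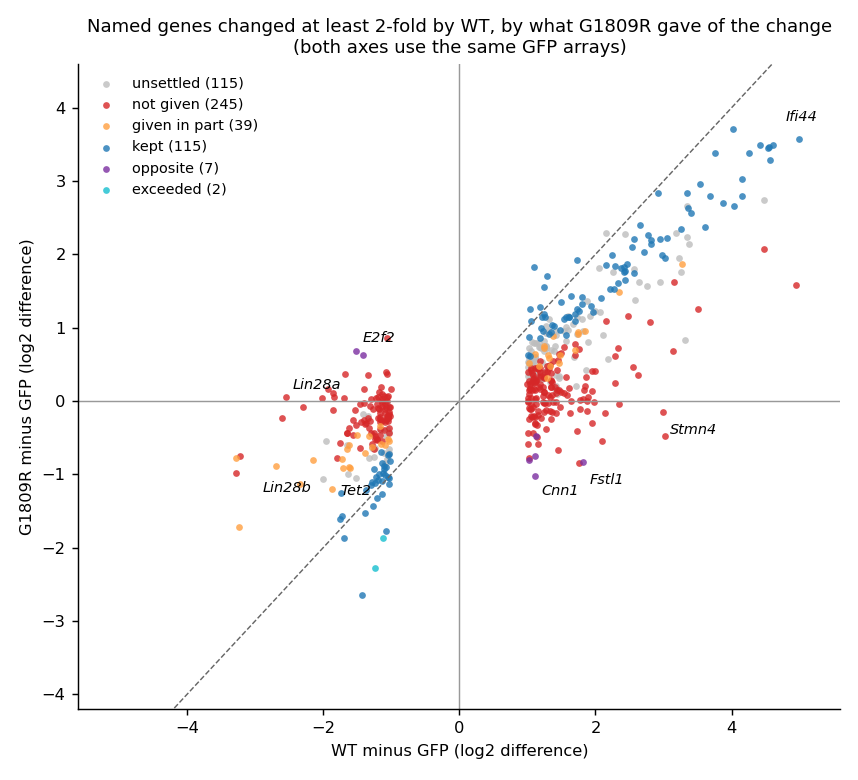
Each point is 1 of the 523 wild-type effects with a gene symbol, with the log2 difference of WT from GFP on the x axis and that of G1809R from GFP on the y axis, coloured by class. Classes follow the calls and not the distance from 0. Over all 499 rises, with or without a symbol, the median of G1809R from GFP is 0.16 for those not given and 1.75 for those kept, where the medians of WT from GFP are 1.30 and 2.28. Both axes share the GFP arrays.

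Of the oncofetal and imprinted genes, 4 were wild-type effects, of which G1809R did not give 2, gave 1 in part and left 1 unsettled. Lin28a, an RNA-binding protein that blocks let-7 maturation and is itself a let-7 target, had levels of 1.53, 0.93 and 0.87 in WT, 4.12, 3.62 and 3.38 in G1809R and 3.99, 3.65 and 3.35 in GFP. The 3 WT arrays lay far below all others, and those of G1809R and GFP overlapped. The difference of G1809R from WT was 2.60 (SE 0.09, 6.07-fold, adjusted p = 2.13e-05), against -2.55 for WT from GFP and 0.05 for G1809R from GFP. It was called under every alternative setting.

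Nr6a1, an orphan nuclear receptor of early embryos and germ cells, had levels of -1.67, -1.96 and -1.32 in WT and 0.51, 0.38 and 1.28 in G1809R. GFP lay at 0.68, 0.89 and 1.30, so the mutant again overlapped the control and not the wild type. The difference of G1809R from WT was 2.38 (SE 0.14, adjusted p = 0.000133). Arid3a, a DNA-binding partner of E2F factors, rose by 1.74 (SE 0.16, adjusted p = 0.000819), with WT at 0.99, 0.42 and 0.83 and G1809R at 2.46, 2.70 and 2.29.

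Lin28b, the paralog of Lin28a, was not fully back at the control level. Its levels were 0.92, 0.92 and 1.01 in WT, 2.55, 3.20 and 2.5 in G1809R and 3.53, 3.93 and 3.46 in GFP, with no overlap between any of the groups. It rose by 1.80 over WT (SE 0.16, adjusted p = 0.000734) and stayed below GFP (-0.89, adjusted p = 0.0291), so G1809R kept 33.2% of the wild-type difference of -2.70. The call against GFP was lost without any 1 array of G1809R or GFP (adjusted p up to 0.109). Trim71, a ubiquitin ligase of stem cells and a let-7 target, was at -3.70, -4.82 and -4.15 in WT and -3.34, -2.89 and -2.18 in G1809R, and its difference of 1.42 did not pass (adjusted p = 0.058).

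Among the oncofetal RNA-binding proteins, Igf2bp2 rose by 0.77 (adjusted p = 0.00145) and Igf2bp1 by 0.54 (adjusted p = 0.0116). Igf2bp3 gave -0.15 (adjusted p = 0.745). Hmga2, a chromatin protein of embryonic growth, rose by 0.73 (adjusted p = 0.0145). Without the block none of Igf2bp1, Igf2bp2 and Hmga2 was called (adjusted p = 0.438, 0.0549 and 0.0973). Hmga2 also lost its call without G1809R replicate 1 or 2 (0.0668 and 0.0589) and without WT replicate 1 (0.0519).

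Not every let-7 target on the list followed. Of 57 tested, out of 61 on the array, 19 (33.3%) were higher and 5 were lower in G1809R than in WT, with a median of 0.20. The pair medians were 0.26, 0.25 and 0.21. In WT against GFP 3 were higher and 26 lower, and in G1809R against GFP none was higher and 3 lower, and the 3 became 0 to 2 when 1 array of any group was left out. The 5 lower in G1809R than in WT were Hmga1, Ccnd1, Il6, Thbs1 and Gas7, of which Gas7 lies outside the naming rule and was picked after its values were seen. Hmga1 fell by 0.53 (adjusted p = 0.00832), and Il6, an inflammatory cytokine, by 1.1 (adjusted p = 0.00909). Ccnd1, the D-type cyclin of G1, fell by 0.94 (adjusted p = 0.00329), from -1.81, -3.02 and -2.09 in WT to -2.83, -4.16 and -2.74 in G1809R. Without the block 9 members were higher and none lower, and without G1809R replicate 2 the lower ones were 3.

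**Figure D3:**
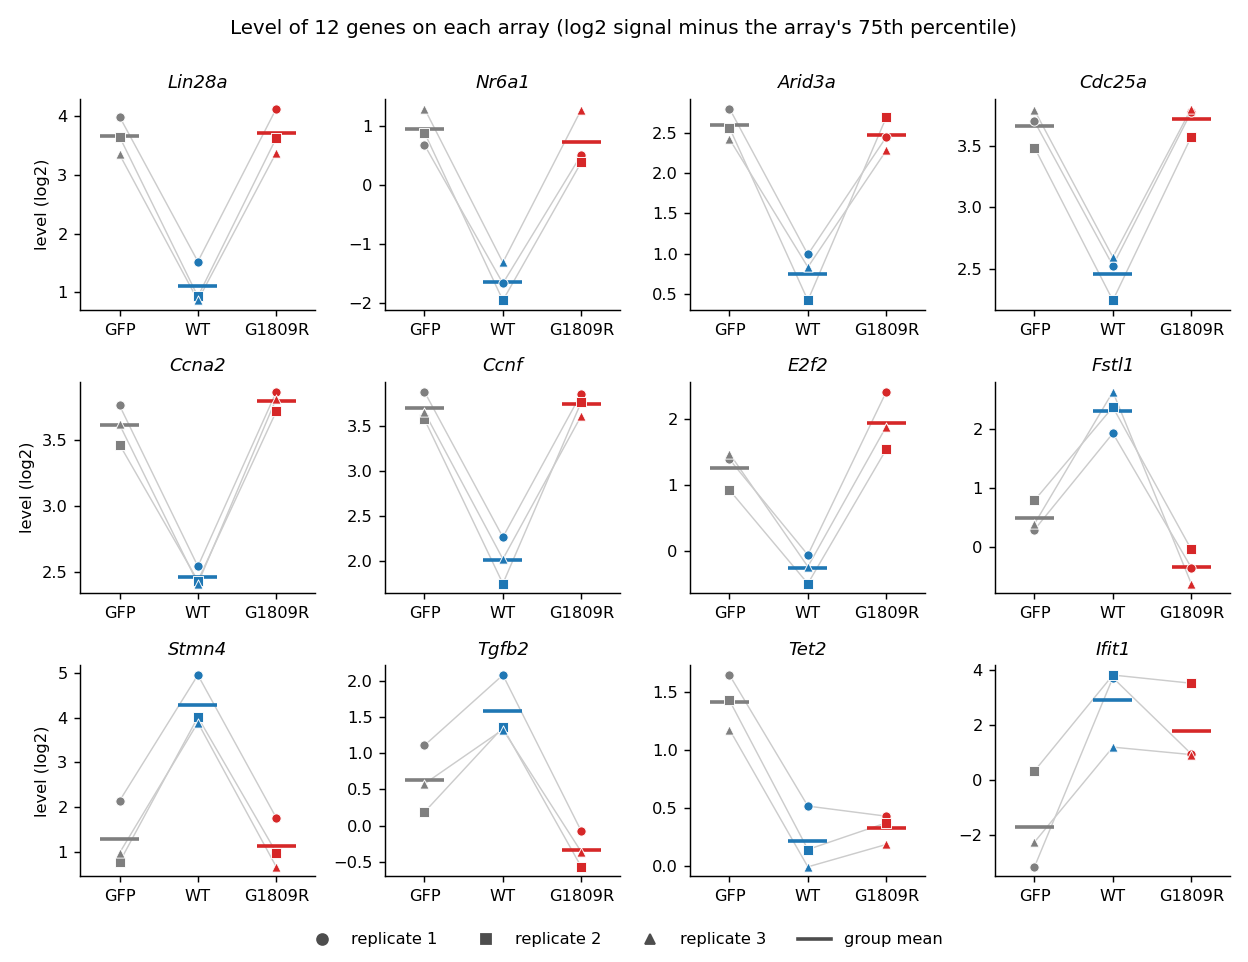
Levels of 12 genes (log2 of intensity relative to the array's 75th percentile) on each array of GFP, WT and G1809R, with the replicate number marked and the group mean as a bar. Lin28a, Nr6a1, Arid3a, Cdc25a, Ccna2 and Ccnf lie low in WT and near the GFP level in G1809R, Tet2 lies low in both, and Ifit1 varies by replicate number in every group.

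Targets of the other 5p families are given against the 6.36% of all genes that were higher and the 6.31% that were lower. For miR-15/16, 8 of 29 tested targets (27.6%) were higher and 4 lower (median 0.25), among the former Ccne1, the cyclin that starts S phase, at 1.48 (adjusted p = 0.00127), and E2f7, a repressive E2F factor, at 1.16 (adjusted p = 0.00089). For the miR-17 family 9 of 30 (30%) were higher and 1 lower (median 0.16). They included E2f2, Rbl1, a pocket protein that binds E2F factors, at 0.96 (adjusted p = 0.000819), and Wee1, the kinase that holds back mitosis, at 0.95 (adjusted p = 0.000591). For miR-21, 6 of 28 (21.4%) were higher and 1 lower (median 0.26). Fgf18, a secreted growth factor, rose by 1.37 (adjusted p = 0.000333), with levels of 4.08, 3.47 and 3.39 in WT and 5.24, 4.98 and 4.82 in G1809R. It was no wild-type effect of at least 2-fold. Fgf18 and Rbl1 were also called in G1809R against GFP. Each kept that call in 1 of 12 fits with an array left out (adjusted p up to 0.158 and 0.169), and both lost it without the block. Reck, a membrane inhibitor of metalloproteases and a classic miR-21 target, rose by 0.83 (adjusted p = 0.00947) and had lost 1.47 from GFP to WT.

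For miR-30, 8 of 33 targets (24.2%) were higher and 4 lower, for miR-34, 6 of 34 (17.6%) and 3, and for miR-31, 2 of 23 (8.7%) and none. Without G1809R replicate 2 the higher ones were 4, 2 and 1, and without G1809R replicate 1 they were 4, 3 and 1. For miR-30 the higher ones were 5 and 4 without WT replicates 1 and 2, and the lower ones 2 without G1809R replicate 1 or 2, any 1 WT array, GFP replicate 2 or D1709N replicate 2 or 3. The 4 lower of miR-15/16 were 2 without G1809R replicate 1 or 2 or WT replicate 2. Over the union of the 5p lists 50 of 206 tested targets (24.3%) were higher and 15 (7.28%) lower in G1809R than in WT, against 6.36% and 6.31% of all genes. The median difference was 0.14. In WT against GFP 63 of the 206 (30.6%) were lower and 11 higher, where 8.6% of all genes were lower. In G1809R against GFP 8 (3.88%) were lower and 4 higher, where 1.98% of all genes were lower. Without any 1 G1809R or GFP array these were 0 or 1 in each direction, and without 1 D1709N array 6 lower and 0 or 1 higher. Without WT replicate 2 or 3 there were 2 higher. Without cell cycle genes and genes also listed for a 3p family, 37 of 165 were higher and 13 lower, with a median of 0.14. Without the block the union had 21 higher and 0 lower, without G1809R replicate 2 it had 36 and 8, without WT replicate 2 it had 40 and 9, and without WT replicate 1 it had 44 and 11. In bulk RNA, a lower level per cell and a smaller share of cells with the transcript cannot be told apart.

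Among the factors that make or use miRNAs, 8 of 32 (25%) were higher and none lower, where 6.36% of all genes were higher, and 4 were higher without the block. Tnrc6a, a scaffold of the silencing complex, rose by 0.95 (adjusted p = 0.00135), and Ago2, the slicing Argonaute, by 0.67 (adjusted p = 0.0103). The array's Dicer1 probe was at 0.53, 0.09 and 0.20 in WT, 1.17, 0.91 and 0.69 in G1809R and 1.36, 1.02 and 1.02 in GFP. G1809R lay above WT on every pair, by 0.65 (SE 0.10, adjusted p = 0.00507). The calls of Ago2 and Dicer1 were lost without the block (adjusted p = 0.284 and 0.119).

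**Figure D4:**
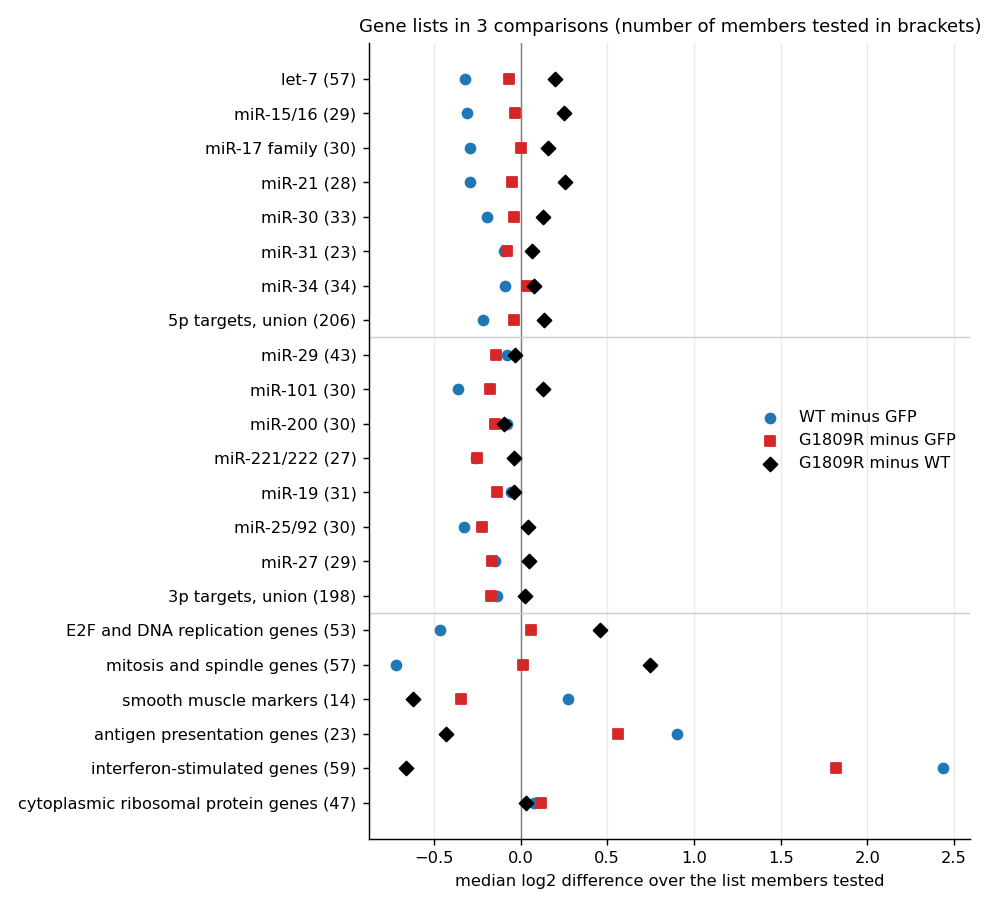
Median log2 difference of the members tested of 22 gene lists in G1809R against WT, WT against GFP and G1809R against GFP. The mitosis and E2F lists and the let-7 list lie above 0 in the comparison with WT and near 0 in the comparison with GFP, while interferon-stimulated genes lie far above 0 in both comparisons with GFP.

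Cell cycle genes moved in 1 direction. WT had lowered them relative to GFP, and G1809R had not. Of 110 tested, 86 (78.2%) were higher in G1809R than in WT and none was lower, where 6.36% of all genes were higher. The median was 0.63, with pair medians of 0.58, 0.64 and 0.72, and 91 members had no overlap between the arrays of the groups (8.27% of all genes). In WT against GFP 88 were lower and 1 higher, with a median of -0.62. In G1809R against GFP 2 were higher and none lower, with a median of 0.02. The summed linear level of the list was 926 to 933 on the WT arrays and 1315 to 1420 on those of G1809R. Without the block, 39 stayed called higher, and on slide 2 alone 39.

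Of the 57 genes of mitosis and the spindle, 53 (93%) were higher and none lower, with a median of 0.75. Ccnf, the F-box cyclin of G2, was at 2.26, 1.75 and 2.02 in WT, 3.86, 3.76 and 3.61 in G1809R and 3.88, 3.57 and 3.65 in GFP. The WT arrays lay well below the other 6. The difference from WT was 1.74 (SE 0.11, 3.33-fold, adjusted p = 0.000137). Kif23, a motor of cytokinesis, rose by 1.11 (adjusted p = 0.0015), Nuf2, a part of the kinetochore, by 1.07 (adjusted p = 0.000779), and Bub1, a spindle checkpoint kinase, by 0.96 (adjusted p = 0.000734). The 4 not called were Pttg1 (-0.11), Tpx2 (0.31), Cenpf (0.31) and Cenpa (0.40), named here after their values were seen.

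Of the E2F targets and DNA replication genes, 33 of 53 were higher and none lower, with a median of 0.46. Ccna2, the cyclin of S phase and G2, was at 2.54, 2.43 and 2.41 in WT and 3.87, 3.72 and 3.81 in G1809R. GFP lay at 3.76, 3.47 and 3.62. Its rise of 1.34 (SE 0.07, adjusted p = 0.000113) had an SD of 0.07 and 0.08 within the groups. Cdc25a, a phosphatase that activates cyclin-dependent kinases and a listed target of let-7, miR-15/16 and miR-21, rose by 1.26 (SE 0.09, adjusted p = 0.000211) from 2.53, 2.25 and 2.60 to 3.77, 3.57 and 3.80. Without G1809R replicate 2 the list had 20 members higher.

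E2f2, an activating E2F factor, ended above the control. Its levels were -0.06, -0.50 and -0.24 in WT, 2.40, 1.53 and 1.88 in G1809R and 1.38, 0.92 and 1.47 in GFP. It was 2.21 above WT (SE 0.13, adjusted p = 0.000113) and 0.68 above GFP (adjusted p = 0.029). The call against GFP was lost without any 1 G1809R array, GFP replicate 1 or 2, or D1709N replicate 2, with an adjusted p of up to 0.106.

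Promoters of members that moved together are shown because letters tied to cell cycle transcription could be looked for in them. They run from 250 bases before to 50 after the transcript start (300 bases, RefSeq, GRCm38.p6), with the letters searched in capitals. The letters were TTTGAA, the cell cycle homology region (CHR), and TTTCCCGC or TTTGGCGC, forms of the E2F site, on both strands. The promoter of Ccnf (chr17:24251360-24251659, minus strand) held 2 CHR matches and that of Cdc25a (chr9:109875329-109875628, plus strand) 1 E2F match.
Ccnf: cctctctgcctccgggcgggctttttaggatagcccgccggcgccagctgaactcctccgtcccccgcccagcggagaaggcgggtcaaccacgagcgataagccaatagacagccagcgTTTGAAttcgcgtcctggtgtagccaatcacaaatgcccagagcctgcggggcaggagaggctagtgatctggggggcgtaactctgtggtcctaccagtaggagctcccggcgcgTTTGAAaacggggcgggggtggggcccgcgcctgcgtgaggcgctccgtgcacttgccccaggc
Cdc25a: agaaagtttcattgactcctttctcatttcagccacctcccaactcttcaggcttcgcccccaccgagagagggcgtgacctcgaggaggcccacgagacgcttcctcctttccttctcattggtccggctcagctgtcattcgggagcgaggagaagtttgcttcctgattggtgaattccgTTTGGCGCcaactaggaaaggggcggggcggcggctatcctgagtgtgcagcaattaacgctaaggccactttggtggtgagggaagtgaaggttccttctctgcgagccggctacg
Of the 53 mitosis genes called higher, 44 had promoters in the table, and 33 of their 46 promoters (71.7%) held the CHR letters, against 17.9% of all 32851 promoters. Of the 33 E2F and replication genes called higher, 27 had promoters, and 10 of 31 (32.3%) held the E2F letters, against 1.56% of all promoters. A match describes these letters and is not a shown binding site.

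Targets of 3p families gave a different picture. Of 198 tested, 21 (10.6%) were higher and 26 (13.1%) lower in G1809R than in WT, with a median of 0.02. In WT against GFP 55 (27.8%) were lower and 12 higher, with a median of -0.14, and in G1809R against GFP 22 (11.1%) were lower and 2 higher, with a median of -0.17. All genes gave 8.6% lower in the former and 1.98% in the latter. The 22 rested on every array of G1809R: 7, 1 and 3 stayed without replicates 1, 2 and 3, none without the block, and 23 without WT replicate 1. Without 1 GFP array, 2 to 6 stayed, and without D1709N replicates 2 and 3 there were 14 and 13. The 55 lower in WT were 32 and 35 without GFP replicates 1 and 3 and 34 without WT replicate 2. In the comparison with WT the counts of 21 and 26 became 10 and 16, 8 and 14, and 11 and 18 without G1809R replicates 1, 2 and 3. They became 12 and 18 without WT replicate 1 and 9 and 18 without WT replicate 2.

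Of the wild-type effects among the 3p targets, G1809R did not give 6 and kept 2. Tet2, which oxidises methylated cytosine and is known as a target of several 3p miRNAs, was a fall that G1809R kept. Its levels were 0.52, 0.14 and -0.01 in WT, 0.43, 0.37 and 0.19 in G1809R and 1.64, 1.42 and 1.17 in GFP. Both DICER1 groups lay below all GFP arrays and overlapped each other. G1809R differed from GFP by -1.08 (SE 0.11, adjusted p = 0.00807), WT by -1.20, and G1809R from WT by 0.11 (95% interval -0.13 to 0.36), so 90.7% of the fall was kept. The call against GFP stayed without any 1 array (adjusted p from 0.00183 to 0.0497) and was lost without the block (0.13).

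By family, miR-101 targets fell with WT (13 of 30 lower and none higher against GFP, median -0.36). In G1809R 5 were lower than in GFP (median -0.17), while 7 were higher and 3 lower than in WT (median 0.13). The 7 were 3, 2 and 2 without G1809R replicates 1, 2 and 3, 4, 3 and 4 without WT replicates 1, 2 and 3, and 4 without GFP replicate 2 or 3. Ezh2, the Polycomb methyltransferase, was listed for let-7, miR-101 and miR-25/92. It was at 3.34, 3.40 and 3.34 in G1809R against 2.84, 2.79 and 2.82 in WT, a rise of 0.54 (adjusted p = 0.0033). It was no wild-type effect of at least 2-fold, so it was not sorted into a class. For miR-221 and miR-222, 8 of 27 were lower in WT and 5 in G1809R than in GFP, and the medians were -0.26 and -0.25. Against WT 1 was higher and 3 lower in G1809R, and the 3 became 0 or 1 without any 1 G1809R or WT array, GFP replicate 2 or D1709N replicate 2. For miR-29, 5 of 43 were higher and 7 lower in G1809R than in WT (median -0.03), the lower ones led by the collagens described below. Dnmt3b, a DNA methyltransferase and miR-29 target, rose by 0.94 (adjusted p = 0.00339). The 5 higher were 2 without G1809R replicate 2 or WT replicate 2, and 3 without G1809R replicate 3 or WT replicate 1.

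For miR-25/92, 15 of 30 were lower in WT than in GFP (median -0.33) and 3 in G1809R (median -0.22). Against WT, 6 of the 30 (20%) were higher in G1809R and 1 lower, and the 6 became 2 without G1809R replicate 1 or 2 or WT replicate 2 and 3 without WT replicate 1. For miR-200, 1 of 30 was higher and 5 lower in G1809R than in WT, and for miR-19, 3 of 31 and 8. For miR-27, 1 of 29 was higher and 2 were lower. These small counts moved with single arrays. The 8 of miR-19 were 4, 3 and 3 without G1809R replicates 1, 2 and 3, 3, 3 and 4 without WT replicates 1, 2 and 3, and 5 without D1709N replicate 2 or 3 or GFP replicate 2. The 5 of miR-200 were 3, 2 and 3 without G1809R replicates 1, 2 and 3 and 2 without WT replicate 1. The 2 of miR-27 were 0 without G1809R replicate 1 or 2 and 1 without WT replicate 2. Zeb1, a repressor of epithelial genes, was 0.18 from WT (95% interval -0.04 to 0.39, adjusted p = 0.262). Zeb2 lay lower in G1809R than in WT or GFP, at 0.73, 0.62 and 0.90 against 1.20, 1.07 and 1.15 in WT. Its difference from WT was -0.39 (adjusted p = 0.018), a call lost without the block (0.169), without G1809R replicate 1 or 2 (0.0774 and 0.0707) and without WT replicate 1 or 2 (0.061 and 0.0646).

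Beyond these lists, the falls kept by G1809R included Dusp2, a phosphatase of MAP kinases, and Zim1, an imprinted zinc-finger gene. Dusp2 was at 1.37, 0.51 and 2.09 in WT, 1.51, 1.05 and 1.96 in G1809R and 2.51, 2.20 and 3.14 in GFP, and differed from GFP by -1.11 (adjusted p = 0.0111). Zim1 differed from GFP by -1.14 (adjusted p = 0.0149) and from WT by 0.15 (95% interval -0.22 to 0.53). Tnc, a matrix glycoprotein well above background on 2 of 3 WT arrays, differed from GFP by -1.25 in G1809R and -1.75 in WT. Cyp1b1, a cytochrome that oxidises estrogens, was not well above background in WT and was so on 2 of 3 G1809R arrays. The calls of Dusp2, Zim1 and Tnc against GFP were lost without G1809R replicate 2 (adjusted p up to 0.0554, 0.0734 and 0.0554 over single arrays left out), those of Dusp2 and Zim1 also without G1809R replicate 3 or GFP replicate 2, and that of Zim1 without GFP replicate 1 or 3.

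Interferon-stimulated genes, the antiviral program that cells start when they sense foreign or double-stranded nucleic acid, made up 40 of the 111 rises that G1809R kept. Of 59 tested, 51 (86.4%) were higher in WT than in GFP (median 2.44), where 9.18% of all genes were higher. Without the block the 51 became 12. In G1809R against GFP 43 (72.9%) were higher (median 1.82), where 1.75% of all genes were. Between G1809R and WT none was higher and 2, Cxcl10 and Gbp2, were lower. Of the 48 members that were wild-type effects, 40 were kept, 6 unsettled, 1 given in part and 1 not given.

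Levels of these genes differed by replicate number in every group. The list's median difference from GFP was 3.41, 2.19 and 1.84 in pairs 1, 2 and 3 for WT and 1.80, 1.79 and 1.75 for G1809R. Isg15, a ubiquitin-like modifier, was at 6.74, 7.10 and 4.46 in WT, 4.16, 6.94 and 4.38 in G1809R and 0.49, 3.81 and 0.71 in GFP. Replicate 2 was the highest in each group, and each DICER1 array lay above the GFP array of its own number. The difference from GFP was 3.49 in G1809R (SE 0.52, adjusted p = 0.0167) and 4.42 in WT (SE 0.52, adjusted p = 0.00139). That of G1809R from WT was -0.94 (95% interval -2.13 to 0.26), made up of -2.57, -0.16 and -0.07 in pairs 1, 2 and 3. Ifit1, which binds viral RNA, was at 3.72, 3.82 and 1.20 in WT, 0.95, 3.52 and 0.92 in G1809R and -3.16, 0.33 and -2.26 in GFP, and G1809R differed from WT by -1.11 (95% interval -2.47 to 0.24). Oasl1, a sensor-like antiviral protein, gave -1.36 (95% interval -2.59 to -0.14, adjusted p = 0.141).

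The shortfall of G1809R against WT was largest in pair 1. The list's median difference was -1.52, -0.29 and -0.07 in pairs 1, 2 and 3. It was -0.66 over all arrays, -0.15 without WT replicate 1, the array that stood apart, and -0.18 on slide 2 alone. Without WT replicate 3, 14 members were called lower than WT. Gbp2, a GTPase, and Cxcl10, a chemokine, differed from WT by -1.41 and -1.53 (adjusted p = 0.0414 and 0.0492), and these calls were lost in most settings, for Gbp2 without WT replicate 1 (0.0583) or GFP replicate 1 (0.0517), and for both without any 1 G1809R array (0.078 to 0.158), WT replicate 2 (0.095 and 0.0682), GFP replicate 2 or 3, or any 1 D1709N array (0.0533 to 0.0735).

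The count of 43 in G1809R against GFP depended on each array as well. It was 3, 0 and 1 without G1809R replicates 1, 2 and 3, 6, 6 and 4 without GFP replicates 1, 2 and 3, 24 and 28 without D1709N replicates 2 and 3, 0 without the block, 36 on slide 2 alone and 49 without WT replicate 1, while the median stayed between 1.62 and 1.96 when 1 array was left out. The calls of Isg15 and Ifit1 against GFP were likewise lost without any 1 G1809R or GFP array (adjusted p up to 0.081 and 0.0974). Ifnb1, the interferon that starts the response, was well above background on 1 GFP array. It was at -1.43, -2.64 and -2.57 in WT and -4.12, -3.88 and -3.86 in G1809R, and its differences of -1.74 from WT and 2.74 from GFP did not pass (adjusted p = 0.11 and 0.051). Of 23 genes of antigen presentation, 13 (56.5%) were higher in WT and 1 (4.35%) in G1809R than in GFP, where 9.18% and 1.75% of all genes were, with medians of 0.90 and 0.56. The 1 became 6 and 3 without WT replicates 1 and 3, 2 without D1709N replicate 1 and 0 without G1809R replicate 2 or 3 or any 1 GFP array. Without the block the 13 became 2 and the 1 became 0. Of 10 wild-type effects on this list 8 were unsettled. H2-T10 was lower in G1809R than in WT, a call lost without any 1 array but WT replicate 3 and GFP replicate 1 (adjusted p = 0.0551 to 0.167) and without the block. Without WT replicate 3, 8 of the list were lower. Of 22 leukocyte markers on the array 11 passed the filter, and Ptprc, Cd8a and Lyz2 were not among them. Their summed level was 22.7 to 30.8 in WT and 25.8 to 34.8 in G1809R, and their part in the result was not tested.

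Ifi207 and Mndal, members of the Ifi200 family of nucleic acid sensors, were higher in WT than in GFP and fell in the group not given. They were thus not called in G1809R against GFP, although each G1809R array of Mndal lay above the GFP array of its own number. Mndal was at -1.70, -0.88 and -2.0 in WT, -5.00, -2.74 and -3.63 in G1809R and -5.49, -4.60 and -5.03 in GFP, and the difference of G1809R from WT was -2.26 (adjusted p = 0.00324, without the block 0.121). Ifi207 differed from WT by -2.41 (adjusted p = 0.0179), a call lost without the block (0.329), without G1809R replicate 1 or 3 (0.0805 and 0.052) and without WT replicate 2 (0.0545).

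**Figure D5:**
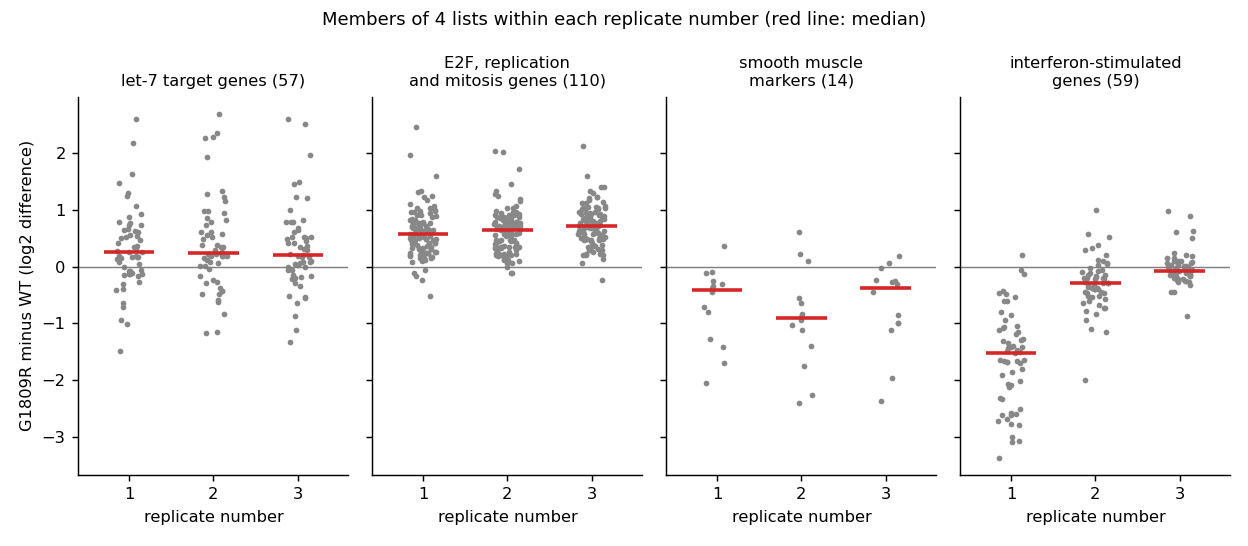
Differences of G1809R from WT for each tested member in each replicate pair, for let-7 targets (57), cell cycle genes (110), smooth muscle markers (14) and interferon-stimulated genes (59), with the median as a bar. Cell cycle medians are 0.58, 0.64 and 0.72, and those of interferon-stimulated genes are -1.52, -0.29 and -0.07, while those of smooth muscle markers are -0.41, -0.91 and -0.37.

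The promoter of Ifit1 (chr19:34640639-34640938, plus strand) is shown because 40 of the kept rises were interferon-stimulated genes. The capitals are matches to the core of the interferon-stimulated response element, spelled as GAAA, any 2 bases and GAAA again, on either strand, and there were 2.
Ifit1: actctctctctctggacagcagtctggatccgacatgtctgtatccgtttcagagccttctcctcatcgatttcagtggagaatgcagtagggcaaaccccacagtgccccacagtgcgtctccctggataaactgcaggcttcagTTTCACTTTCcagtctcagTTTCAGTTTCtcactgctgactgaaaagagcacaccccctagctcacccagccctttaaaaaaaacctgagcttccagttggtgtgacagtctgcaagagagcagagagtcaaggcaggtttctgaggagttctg
The letters stood in 29 of 76 promoters (38.2%) of wild-type rises that were kept, in 9 of 147 (6.12%) of those not given and in 3.44% of all promoters. Promoters were in the table for 62 of the 82 named genes of the former group and 111 of the 152 of the latter. Among interferon-stimulated genes called higher in WT than in GFP, 21 of 46 promoters (45.7%) held them.

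A few genes went past the control. Fstl1, a secreted glycoprotein, was at 1.92, 2.37 and 2.63 in WT, -0.35, -0.04 and -0.62 in G1809R and 0.29, 0.79 and 0.39 in GFP, so no groups overlapped. G1809R differed from WT by -2.65 (SE 0.17, adjusted p = 0.000185) and from GFP by -0.83 (adjusted p = 0.0408). Rbp4, the retinol carrier, was at 1.87, 1.76 and 2.03 in WT and 0.01, 0.03 and 0.03 in G1809R, with GFP at 0.76, 0.86 and 0.70 in between. Its differences were -1.87 from WT and -0.75 from GFP (adjusted p = 0.000113 and 0.0116). The other effects turned round were the rises of Marchf4, Cnn1 and Tspan12 and the falls of E2f2 and Atp6v0a4, a subunit of the proton pump. The 7 became 0 without the block and 0 to 15 when 1 array was left out. The call of Rbp4 against GFP was lost without any 1 G1809R array or GFP replicate 2 (adjusted p up to 0.0584), and that of Fstl1 without any array but WT replicates 1 and 3 (up to 0.142).

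Other genes were called in the mutant against both WT and GFP and were not called in WT against GFP, which does not show that WT equalled GFP. There were 61 higher and 130 lower in G1809R. These became 0 and 1 without the block, 3 and 22, 1 and 4, and 8 and 26 without G1809R replicates 1, 2 and 3, 14 and 57, 2 and 11, and 10 and 24 without GFP replicates 1, 2 and 3, and 31 and 82 without D1709N replicate 2. Without D1709N replicates 1 and 3 they were 33 and 93, and 30 and 85, and without WT replicate 2 they were 35 and 100. Gjb2, a gap junction protein, was at -1.37, -3.03 and -2.19 in WT, -3.00, -5.28 and -4.55 in G1809R and -1.25, -2.74 and -2.86 in GFP, and G1809R was the lowest group at every replicate number. It differed by -2.08 from WT (adjusted p = 0.0075) and by -1.99 from GFP (adjusted p = 0.0254). Acsl6, an acyl-CoA synthetase, differed from WT by -1.96 (adjusted p = 0.00232) and Tcf7, a Wnt transcription factor, by -1.04 (adjusted p = 0.00256). The calls of all 3 were lost without the block (adjusted p = 0.286, 0.365 and 0.175). S100a4, a calcium-binding protein of motile cells, was higher, by 0.94 from WT (adjusted p = 0.00452) and 1.01 from GFP (adjusted p = 0.0132). Both of its calls were also lost without the block (adjusted p = 0.597 against GFP). It was on the list of mesenchymal markers, of which 21 were tested. Of these, 6 (28.6%) were higher and 6 (28.6%) lower in G1809R than in WT (median -0.26), where 6.36% and 6.31% of all genes were. Against GFP the call of Gjb2 was lost without any 1 G1809R array or GFP replicate 1 or 2 (up to 0.103), and that of S100a4 without G1809R replicate 1 or 2 or GFP replicate 2 (up to 0.0734). Those of Acsl6 and Tcf7 against GFP were lost without any 1 G1809R array or GFP replicate 2 or 3 (up to 0.103 and 0.0828). Without the block the calls of Gjb2, Acsl6 and Tcf7 against GFP were lost too (adjusted p = 0.653, 0.92 and 0.653).

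Smooth muscle markers and several TGF-beta genes were lower in G1809R than in WT. Tgfb2, a ligand of the pathway, was at 2.08, 1.35 and 1.32 in WT, -0.08, -0.57 and -0.36 in G1809R and 1.11, 0.19 and 0.58 in GFP. G1809R lay below every WT and GFP array and differed by -1.92 from WT (SE 0.11, adjusted p = 0.000113) and -0.96 from GFP (adjusted p = 0.0102), with WT above GFP by 0.96. Without G1809R replicate 2 the call against GFP was lost (0.0554). Among the antagonists, Fst, which binds activins, differed from WT by -1.51 (adjusted p = 0.00184) while the WT and GFP means were -0.54 and -0.53. Ltbp2, a latent TGF-beta binding protein, differed by -1.18 (adjusted p = 0.000286). Of 30 genes of the pathway, 6 (20%) were higher and 10 (33.3%) lower (median -0.06), where 6.36% and 6.31% of all genes were. Without the block these were 1 and 2. They were 1 and 8 without G1809R replicate 1 or WT replicate 1, and 2 higher without replicate 2 of either group. Without G1809R replicate 3 the higher ones were 3, and without D1709N replicate 1 or 3 they were 3. The calls of Fst and Ltbp2 were lost without the block (adjusted p = 0.517 and 0.159).

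Of 14 smooth muscle markers, 9 were lower and none higher, where 6.31% of all genes were lower. The median was -0.62, and in pairs 1, 2 and 3 it was -0.41, -0.91 and -0.37. Cnn1, calponin, was at 1.04, -0.02 and 1.76 in WT, -1.0, -2.43 and -0.20 in G1809R and -0.37, -1.15 and 0.98 in GFP. Levels differed between replicate numbers by more than 2 in G1809R, and in each pair G1809R was lower than WT by 1.96 or more. The difference was -2.14 (SE 0.16, adjusted p = 0.00034, without the block 0.299). Tagln, transgelin, differed by -1.38 (adjusted p = 0.00727), Actg2, enteric actin, by -1.81 (adjusted p = 0.00505) and Myh11, smooth muscle myosin, by -1.31 (adjusted p = 0.0106). Without the block none of the 9 was called, and without G1809R replicate 2 and WT replicate 2 there were 4 and 5. The list's summed level was 148 to 296 in WT and 75.4 to 174 in G1809R, and a part of such cells in the result was not tested.

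In the matrix list 6 of 47 genes (12.8%) were higher and 9 (19.1%) lower, where 6.36% and 6.31% of all genes were. Without the block these were 0 and 1, and without G1809R replicate 2 they were 3 and 5. The higher ones were 3, 2 and 3 without G1809R replicates 1 and 3 and WT replicate 2. Col4a1 and Col4a2, chains of basement membrane collagen and miR-29 targets, were higher in WT than in GFP by 1.29 and 1.31, and in G1809R at -0.03 and 0.08 from GFP. They fell from WT to G1809R by 1.32 and 1.22 (adjusted p = 0.00222 and 0.0015, without the block 0.122 and 0.0876). Of 10 endothelial markers past the filter, out of 18, Kdr, Flt1 and Ecscr (30%) were lower and none higher. Among all genes 6.31% were lower, and without the block none of the markers was called. The summed levels of the markers were 45.6 to 56.4 in WT and 33.9 to 42.4 in G1809R. Kdr, a VEGF receptor, differed by -0.58 (adjusted p = 0.00932), while Cdh5, Tek, Tie1 and Erg, which define the cell type, did not pass the filter. The part of such cells was not tested. Without replicate 1 or 3 of either group, 1 of the 3 calls stayed.

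Among the largest falls were wild-type rises that the mutant did not give. Stmn4, a microtubule-destabilising protein of neurons, was at 4.96, 4.01 and 3.89 in WT, 1.76, 0.98 and 0.67 in G1809R and 2.14, 0.77 and 0.98 in GFP. All WT arrays lay above all others, and the difference was -3.15 (SE 0.12, 8.87-fold, adjusted p = 2.9e-05). Lrrc15, a membrane protein of stromal cells, differed by -2.61 (adjusted p = 0.000531) and Slc13a5, a citrate transporter, by -2.39 (adjusted p = 0.000479). For a gene that was not well above background on any array of a group, the fold is the mean of the bright group over a floor, taken on each array as its dimmest probe above background or the gene's own signal, whichever was brighter. On that basis Fabp4, a fatty acid binding protein, was at least 2.73-fold higher in WT than in G1809R (adjusted p = 0.000133), and Tmem151b at least 3.97-fold (adjusted p = 0.00434). The latter was no wild-type effect.

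Among the rises, Pfkfb1, which sets the level of a glycolytic signal, was at -1.06, -1.66 and -0.66 in WT and 1.02, 0.96 and 1.26 in G1809R. GFP lay at 1.20, 0.99 and 1.31, and the rise was 2.21 (SE 0.15, adjusted p = 0.000208). Ly6d, a membrane antigen of lymphoid and epithelial progenitors, rose by 2.48 (adjusted p = 0.000233) and Ms4a2, a chain of the IgE receptor, by 2.5 (adjusted p = 0.000113, without the block 0.234). Tgm5, a transglutaminase, was at least 1.85-fold higher in G1809R than in WT (adjusted p = 0.00555, without the block 0.128). Ccl2, a chemokine that attracts monocytes, was at 5.44, 5.55 and 6.41 in WT and 6.91, 7.08 and 7.33 in G1809R and rose by 1.31 (adjusted p = 0.00132), back to -0.26 from GFP (adjusted p = 0.331). Of 32 inflammatory genes 3 (9.38%) were higher and 5 (15.6%) lower, where 6.36% and 6.31% of all genes were. Without the block these were 1 and 0, and without G1809R replicate 1 they were 1 and 2. The higher ones were 1 without replicate 2 of either group or WT replicate 1, and the lower ones 2 or 3 without G1809R replicate 2 or 3 or WT replicate 1 or 3.

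Other lists are given by their counts, beside the 6.36% of all genes higher and the 6.31% lower. With limma none of 31 p53 targets was called in either direction, nor any of 47 ribosomal protein genes, with or without the block. At an unadjusted p under 0.05 there were 10 and 1, where 6628 of all 24184 genes were. Against GFP, 8 p53 targets (25.8%) were lower in WT and 3 (9.68%) in G1809R, where 8.6% and 1.98% of all genes were. None of these stayed called without the block. For the p53 targets, Cdkn1a, the inhibitor of cyclin-dependent kinases, differed by -0.25 (95% interval -0.48 to -0.03, adjusted p = 0.139). H19, an imprinted noncoding RNA, differed by 0.04 (95% interval -0.34 to 0.43). Among genes of the amino acid and ER stress response 3 of 35 (8.57%) were higher and 4 (11.4%) lower, among heat shock genes 1 of 21 (4.76%) and 2 (9.52%), among hypoxia genes 3 of 35 (8.57%) and 3, and among Wnt targets 1 of 15 (6.67%) and 5 (33.3%). Without WT replicate 3, 14 hypoxia genes were higher, without G1809R replicate 1 none was, and without G1809R replicate 2 or 3 or WT replicate 1 or 2 it was 1. The 4 stress genes were 0 without G1809R replicate 1 or 3, 2 without WT replicate 1 or 3 and 7 without WT replicate 2. The 5 Wnt targets were 3 without G1809R replicate 1 or 2, and 1 of the 2 heat shock genes was lower without any 1 array but WT replicate 1. Among genes of cholesterol synthesis 7 of 30 (23.3%) were higher and none lower (median 0.13), with 1 higher without the block and 4 higher without G1809R replicate 1, with Idi1, an isomerase of the pathway, at 0.60 (adjusted p = 0.00434, without the block 0.13).

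The mutants were also set against each other. In limma with the block 0 of 24184 genes differed between G1809R and D1709N, with 1063 at an unadjusted p under 0.05, and without the block 0 and 65. Without GFP replicate 3 the count was 1. Lin28a was at 3.95, 3.64 and 3.14 in D1709N, 0.13 from G1809R, Tgfb2 at 0.05, -0.66 and -0.38, and Tet2 at a lowest of -0.07 and a highest of 0.00. Tet2 in G1809R lay 0.35 above D1709N (adjusted p = 0.974), and its arrays did not overlap between the mutants. The absence of calls does not show that the mutants act alike.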

How the data were processed

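RNA of 12 samples was measured on single-colour Agilent arrays. Per the file headers, the authors scanned them with Agilent Feature Extraction 11.0.1.1, and the deposited scanner files give each spot's processed intensity, already background-corrected on a linear scale. A deposited value table holds log2 values that share 1 maximum and nearly 1 median (9.40 to 9.42). Its values follow the log2 scanner values, but its scaling and centring are not given in the sources used here.

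Control spots and flagged outliers were left out, spots of a probe were averaged, and log2 values were taken minus each array's 75th percentile. A probe was kept where it was well above background on all arrays of at least 1 group, and the brightest probe stood for its gene, which left 24184 genes and transcripts, 14732 of them with a symbol matched through RefSeq (GRCm38.p6). limma 3.58.1 (R 4.3.3) was fitted to all 12 arrays with group and replicate number, p-values were two-sided and adjusted over all genes (Benjamini-Hochberg), and genes under 0.05 were called. All "adjusted p" are from limma. Same-numbered arrays deviated together (r of 0.601 to 0.853 between groups, against at most 0.197 for other numbers), so the number was a block. The pairing comes from the data, since the labels give only the number. The fit was tested on simulated data. The number of arrays limits the precision.

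Named genes were the 10 largest rises and falls between G1809R and WT without overlap, the 8 largest wild-type effects of each class and direction, the 6 largest other changes in each direction, up to 4 called members of each of 38 lists, and a set list, of which a selection is printed. Members and lists were chosen with earlier results of these data known. Alternatives left out the block, an array, the D1709N arrays or the filter, put slide in place of the number, used slide 2 alone, or used quantile normalization, normexp (offset 50, on median signals), the value table or the mean of a gene's probes.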

Additional observations from a re-analysis of the deposited data

How the results depend on the processing

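None of the 149 genes named by the rule and called in G1809R against WT, and none of the 58 called in G1809R against GFP, changed sign in its comparison under any alternative. The design largely fixed this. Leaving out the block, or an array of a group outside the comparison, does not change the estimated difference. Each of the 3064 genes called in G1809R against WT also had the same sign in 3 of 3 pairs. The signs therefore say little about how stable the calls were. For G1809R against WT, the 3064 genes called became 397 without the replicate block, 1206 with slide as the block, 682 on slide 2 alone, 1581 without the filter on dim probes (which added dim genes to the test and moved the median of all genes to -0.12), 171 with the 6 arrays alone, and 1573 to 2773 when 1 array was left out. For WT against GFP the 4300 became 713, 2112, 1613 and 2531 under the first 4 of these, and 2328 to 4035 with 1 array left out. For G1809R against GFP the 904 became 3, 63, 149 and 12, 104 without the D1709N arrays, and 18 to 1082 with 1 array left out. For G1809R against D1709N the count was 0 or 1 with 1 array left out. Fewer arrays leave fewer degrees of freedom; otherwise the cause was not tested.

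The wild-type effects not given (297) became 100 without the replicate block, 194 with slide as the block, 188 on slide 2 alone, 148 with normexp and 254 to 382 with 1 array left out. Those given in part (54) became 0, 3, 9 without the D1709N arrays, 9 on slide 2, 1 without the filter and 0 to 98 with 1 array left out. Those kept (149) became 1 without the block, 14 with slide, 31 without the D1709N arrays, 98 on slide 2, 2 without the filter and 5 to 191. The unsettled (199) became 337 without the D1709N arrays, 409 without the filter, 53 with normexp and 124 to 415. The opposite effects (7) became 0 without the block and without the filter, 1 with slide, without the D1709N arrays and on slide 2, 4 with normexp and 0 to 15. The 2 exceeded became 1 with slide and with the mean of probes, 0 in the other settings and 0 to 2 with 1 array left out.

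Of 149 named genes called between G1809R and WT, 46 kept the call without the replicate block, 88 with slide, 66 on slide 2 alone, 40 with the 6 arrays of G1809R and WT alone, 111 without the filter, 132 without the D1709N arrays, 146 with the mean of probes, 131 with quantile normalization, 144 with normexp, 133 with the value table, and 107 to 144 with 1 array left out (119 without WT replicate 1). Dim genes, not well above background in a group, have only a bound there.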
